A study of Homo sapiens with 39 samples.

Results

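Guide abundance was measured in a pooled CRISPR knockout screen of MED12 knockout A375 cells, a human melanoma line that carries an activating BRAF mutation, after 14 days in vemurafenib or in its solvent DMSO. The 6 libraries described here, 3 per arm, are all those of the 39 in the series that the labels give to the epigenetic library, the MED12 knockout and day 14 with DMSO or vemurafenib. The treated cells received 2 µM vemurafenib and the controls DMSO, and both arms were split every few days from the same kind of transduced population. All 6 libraries, the DMSO controls included, come from cells that already lacked MED12, so no value below compares the knockout with unmodified A375. The labels do not say whether the MED12 knockout is 1 clone or a pool, nor whether libraries of an arm came from separate infections or cultures. The p-values therefore do not measure a spread over clones or infections. Every gene-targeting guide of the library was used: 11150 guides against 1115 genes, 10 guides each, of a library that the labels call epigenetic and that also holds signalling and core growth genes. Another 1064 guides, named CTRL, AAVS1 or Zhang, are grouped as control guides here. The name Zhang does not say what those guides target.

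In such a screen each cell carries 1 integrated guide, and the guide's share of the sequenced DNA follows how well its carriers grow or survive. A guide that gains share in vemurafenib marks a gene whose loss favours cells under the drug relative to the rest of the pool, and a guide that loses share marks the opposite. Vemurafenib inhibits mutant BRAF, the kinase that drives MEK and ERK in these cells, and drug tolerance in melanoma is known to arise when RAS or receptor tyrosine kinases switch the pathway back on. MED12 belongs to the kinase module of Mediator, the complex that links transcription factors to RNA polymerase II.

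Depth was similar in both arms. The day-14 libraries held between 17642466 and 20484218 reads, and between 45 and 60 of 12214 guides had no read in a library. Abundance was more uneven in vemurafenib: the most abundant 1% of guides held 13.0% to 15.6% of reads in the 3 treated libraries, against 8.10% to 8.77% in DMSO. The control guides stayed close to 0. Their median log2 fold change, vemurafenib against DMSO, was 0.06 for the 83 guides named CTRL, 0.07 for the 267 named AAVS1 (a safe-harbour locus) and 0.07 for the 714 named Zhang, and 0.05 for the gene-targeting guides. None of the 1064 control guides was called by edgeR, and the 5th to 95th percentile ran from -0.47 to 0.76 for CTRL guides and from -0.997 to 1.19 for gene-targeting guides. Libraries of the same replicate number deviated together: the deviations of a DMSO library from its group mean correlated with those of the same-numbered vemurafenib library at 0.71 to 0.73 across guides. Correlations with other numbers, at -0.38 to -0.33, add no further evidence, since the deviations of 3 libraries from their mean sum to 0. Because same-numbered libraries deviated together, the number was kept as a block in the fits. The spread between libraries of a group grew with time: the mean chi-square per guide between them was 19.2 to 19.9 at day 0 and 515 to 818 at day 14, where sampling of reads alone gives about 1.

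Loss of 9 genes was enriched in vemurafenib and loss of 4 was depleted. The genes that rose and are described here are NF1, SETDB1, TP53BP1, SMAD4, SMARCD1, METTL3, MAP3K1 and ING5, and those that fell are CDK2, BPTF, KDM1A and CDYL. The rise was the larger side in size as well as in number, with median log2 fold changes over 10 guides up to 2.50 (NF1), against -0.90 for the strongest depletion (BPTF). Calls rest on edgeR's quasi-likelihood test per guide, combined per gene by robust rank aggregation (RRA, which asks whether a gene's guides sit higher in the ranking than chance places them) and adjusted by Benjamini-Hochberg over 1115 genes, with a threshold of 0.05. By this test 0.807% of genes rose and 0.359% fell. Its gene p reflects how the guides of a gene rank among all gene-targeting guides. Libraries enter it only through the test of each guide. A second test compared the gene score between libraries with limma. The score is the mean over a gene's 10 guides of log2 CPM. CPM is a guide's reads as a share of the library total after TMM scaling, with 0.5 added. The standard error (SE) reflects the spread between libraries, pooled over all groups of the fit, day 0 and day 8 included. A gene therefore has the same SE at day 8 and day 14 (0.17 for NF1). Libraries of a group differed far more at day 14 than at day 0. The SE may thus understate the day-14 spread, and the limma p-values may be too low. No limma result given here is from the day-14 libraries alone. The limma test passed 28 genes upward (2.51%) and 24 downward (2.15%). Of the 9 genes that rose 8 passed it too, and of the 4 that fell 3 did. Gene scores of all 3 treated libraries lay above those of all 3 controls for 36 genes (3.23%) and below them for 41 (3.68%), and all described genes that rose except ING5, and all that fell except CDYL, were among these. A change of the same sign in all 3 pairs was common, upward in 16.6% and downward in 15.5% of genes.

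**Figure D1:**
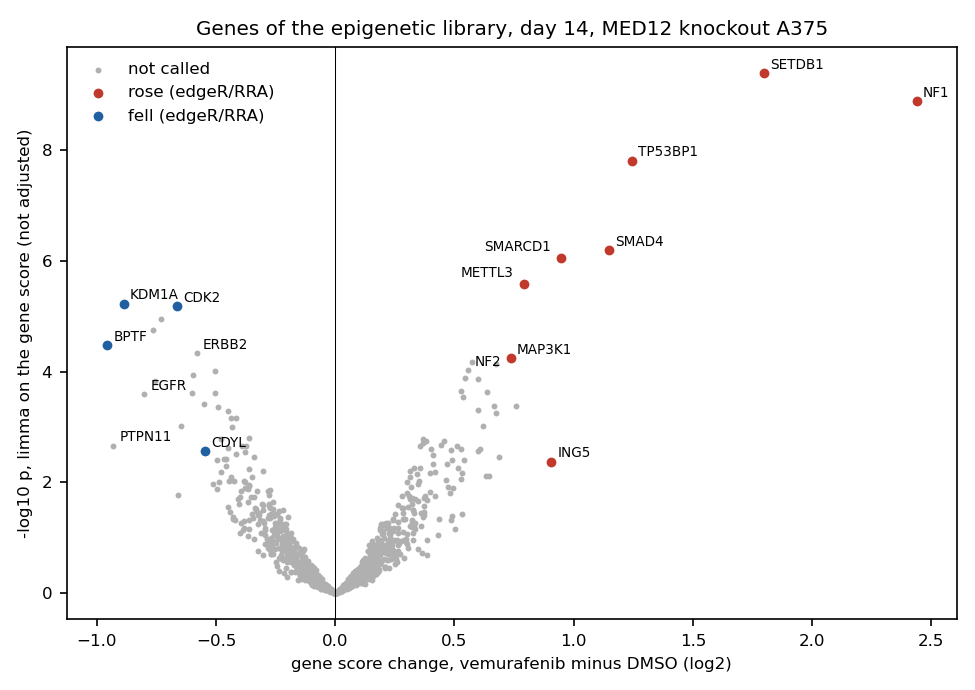
Each point is a gene of the epigenetic library, placed by its gene score change between vemurafenib and DMSO at day 14 (log2, x axis) and by the limma p of that change before adjustment (-log10, y axis). The colours mark the genes that rose (red) or fell (blue) by edgeR/RRA; NF1 lies farthest right at 2.44 and BPTF farthest left at -0.96, and ING5 and CDYL lie lower than the other coloured genes.

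NF1, a GTPase-activating protein that switches RAS off, gave the largest change. Its 10 guides summed to 440, 422 and 502 CPM in the DMSO libraries and to 2601, 2311 and 4697 CPM in the vemurafenib libraries. The arms did not overlap, and at day 0 the same guides held 354 ± 18.8 CPM (SD, n = 3). The gene score rose by 2.44 ± 0.17 (SE; limma adjusted p = 7.44e-07), and all 10 guides were higher in vemurafenib (edgeR/RRA adjusted p = 5.69e-12), with single-guide log2 fold changes between 0.30 and 4.19. Of these guides 7 passed on their own. The most strongly changed guide, NF1_4, went from 95.8, 18.0 and 24.7 CPM in DMSO to 1282, 477 and 483 CPM in vemurafenib. In DMSO the NF1 score lay 0.19 below its day-0 level, whereas in vemurafenib it lay 2.25 above it, so the gain was seen with the drug only in these libraries.

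Around NF1, the library held 7 genes of the RAS-RAF-MEK-ERK core, and none passed edgeR/RRA. BRAF guides, which target the drug's own target, summed to 267, 254 and 383 CPM in DMSO and to 920, 557 and 630 CPM in vemurafenib. Their median log2 fold change of 0.51 did not pass (edgeR/RRA adjusted p = 0.164), and 6 of 10 guides were higher, from -0.85 to 2.11. The median turned to -0.12 without vemurafenib library 3 and was 0.81 without vemurafenib library 1, 1.02 without DMSO library 3, 1.16 with guides of at least 20 CPM and 1.04 on summed counts. The BRAF gene score was up by 0.60 ± 0.13 (SE; limma adjusted p = 0.0168), a call that did not hold without DMSO library 1 or 2 or vemurafenib library 2 or 3 (limma adjusted p = 0.101, 0.0825, 0.059 and 0.0531). BRAF scores were below day 0 in both arms, by 1.42 in DMSO and by 0.82 in vemurafenib. MAP2K1, which encodes MEK1, was up by 0.62 ± 0.15 in gene score (limma adjusted p = 0.0278), a call that any of 4 libraries decided: leaving out DMSO library 2 or 3 or vemurafenib library 1 or 2 gave limma adjusted p = 0.126, 0.123, 0.0603 and 0.0777. PTPN11, the SHP2 phosphatase that carries receptor signals to RAS, pointed the other way. Its median log2 fold change was -0.84 (edgeR/RRA adjusted p = 0.157), its gene score change -0.93 ± 0.25 (limma adjusted p = 0.0481), and 1 of its guides, PTPN11_5, was called by edgeR, at 88.9, 101 and 158 CPM in DMSO and 33.6, 25.3 and 26.6 CPM in vemurafenib. The limma call of PTPN11 was lost when any one of 5 libraries was left out (limma adjusted p up to 0.157, without DMSO library 2), and its summed CPM changed little, with a ratio of treated to control means of 0.93.

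Receptor and SRC-family tyrosine kinases were the list with the lowest median. Of 13 measured members 4 lay above 0, against 58.5% of all genes, and the median of their medians was -0.33, against 0.05 over all genes. None passed edgeR/RRA in either direction, and ERBB2, EGFR and JAK1 passed limma downward, as did 2.15% of all genes. ERBB2, a receptor of the EGF family, summed to 822, 621 and 799 CPM in DMSO and to 563, 386 and 615 CPM in vemurafenib, so that every treated library lay below every control. Its median was -0.75 (edgeR/RRA adjusted p = 0.0894) and its gene score change -0.58 ± 0.10 (limma adjusted p = 0.00403), and it passed limma with any single library left out. Without DMSO library 2 the median was -0.46. EGFR, the EGF receptor itself, changed by -0.80 ± 0.16 in gene score (limma adjusted p = 0.0106), with the call lost without DMSO library 1 or 2 (limma adjusted p = 0.0637 and 0.0624). Guide EGFR_3 alone fell from 83.1, 58.6 and 143 CPM to 2.74, 16.4 and 25.2 CPM, a log2 fold change of -2.87, while the summed CPM of all EGFR guides had a ratio of 1.01. ERBB3, the kinase-impaired partner of ERBB2, had a gene score change of -0.38 ± 0.10 that did not pass (limma adjusted p = 0.0522). JAK1, the kinase of interferon and cytokine receptors, changed by -0.39 ± 0.10 (limma adjusted p = 0.0481), a call lost without DMSO library 1 or 2 or vemurafenib library 2 or 3, at up to 0.157.

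SETDB1, the methyltransferase that places H3K9 trimethylation on silenced genes and retroelements, was the chromatin regulator with the largest rise. Reads of its guides came to 1904, 1799 and 1590 CPM in DMSO and to 6631, 5514 and 3932 CPM in vemurafenib. All treated libraries lay above all controls. The gene score rose by 1.80 ± 0.11 (SE; limma adjusted p = 4.58e-07) and all 10 guides were higher, between 0.98 and 3.26 (edgeR/RRA adjusted p = 1.68e-10). Unlike the NF1 score, the SETDB1 score was also higher in DMSO than at day 0, by 1.55, and it stood 3.35 above day 0 in vemurafenib. These values share libraries with the contrast.

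The H3K9 list held 11 measured genes, of which 8 lay above 0 and only SETDB1 passed edgeR/RRA or limma. MPHOSPH8, a subunit of the HUSH complex that recruits SETDB1, came closest, with a median of 0.64 and 9 of 10 guides higher (edgeR/RRA adjusted p = 0.0639; limma adjusted p = 0.0505). Its guide MPHOSPH8_4 passed on its own, at 1272, 1040 and 831 CPM in DMSO and 2604, 1751 and 2021 CPM in vemurafenib. On counts summed per gene MPHOSPH8 passed, at a log2 fold change of 0.60 (edgeR adjusted p = 0.00192). TRIM28 and CBX3 did not pass that test (-0.15 and 0.51, adjusted p = 0.795 and 0.128). TRIM28, the KRAB zinc-finger corepressor that also binds SETDB1, had a median of 0.33 (edgeR/RRA adjusted p = 0.947), and CBX3, an HP1 reader of H3K9 methylation, one of -0.11 (0.606). SETDB2 held the lowest median of the list, -0.18.

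TP53BP1 guides, already abundant in DMSO, rose further in vemurafenib. TP53BP1 encodes 53BP1, a protein that binds chromatin at DNA double-strand breaks. Its guides summed to 4313, 3619 and 4257 CPM in DMSO and to 11563, 8798 and 9121 CPM in vemurafenib, with no overlap between arms. Its gene score rose by 1.24 ± 0.11 (SE; limma adjusted p = 5.81e-06), all 10 guides were higher, between 0.53 and 1.78 (edgeR/RRA adjusted p = 5.69e-12), and 4 guides passed on their own. Relative to day 0 the TP53BP1 score was 1.56 higher in DMSO and 2.81 higher in vemurafenib. Among 15 measured genes of the DNA damage response list 12 lay above 0, with a median of 0.32, and TP53BP1 alone was called. CDKN1A, the cyclin-dependent kinase inhibitor p21, had a median of 0.35 with 8 of 10 guides higher (edgeR/RRA adjusted p = 0.227). RNF8, a ubiquitin ligase upstream of 53BP1, had a median of 0.34 but a gene score change of -0.13 ± 0.13, opposite signs that did not pass either test (adjusted p = 0.456 by edgeR/RRA and 0.696 by limma). RFWD2, the ubiquitin ligase COP1, had the lowest median, -0.35 (edgeR/RRA adjusted p = 0.616).

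SMAD4, the common partner of the SMAD transcription factors that carry TGF-beta signals, rose next. Guides against it summed to 1405, 1492 and 1453 CPM in DMSO and to 3333, 4315 and 4039 CPM in vemurafenib. The DMSO libraries agreed closely (mean 1450 ± 43.4 CPM, SD, n = 3) and every treated library was above them. The gene score rose by 1.15 ± 0.13 (SE; limma adjusted p = 0.000141), with all 10 guides higher, between 0.27 and 1.95 (edgeR/RRA adjusted p = 4.15e-08). The receptor-regulated SMADs did not pass: SMAD2 had a median of 0.01 and SMAD3 one of 0.25 (edgeR/RRA adjusted p = 1 for both; 0.32 and 0.80 on summed counts, adjusted p = 0.337 and 0.183), and their difference from SMAD4 was not tested. TRIM33, a SMAD-binding ubiquitin ligase, had -0.29 (0.492).

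**Figure D2:**
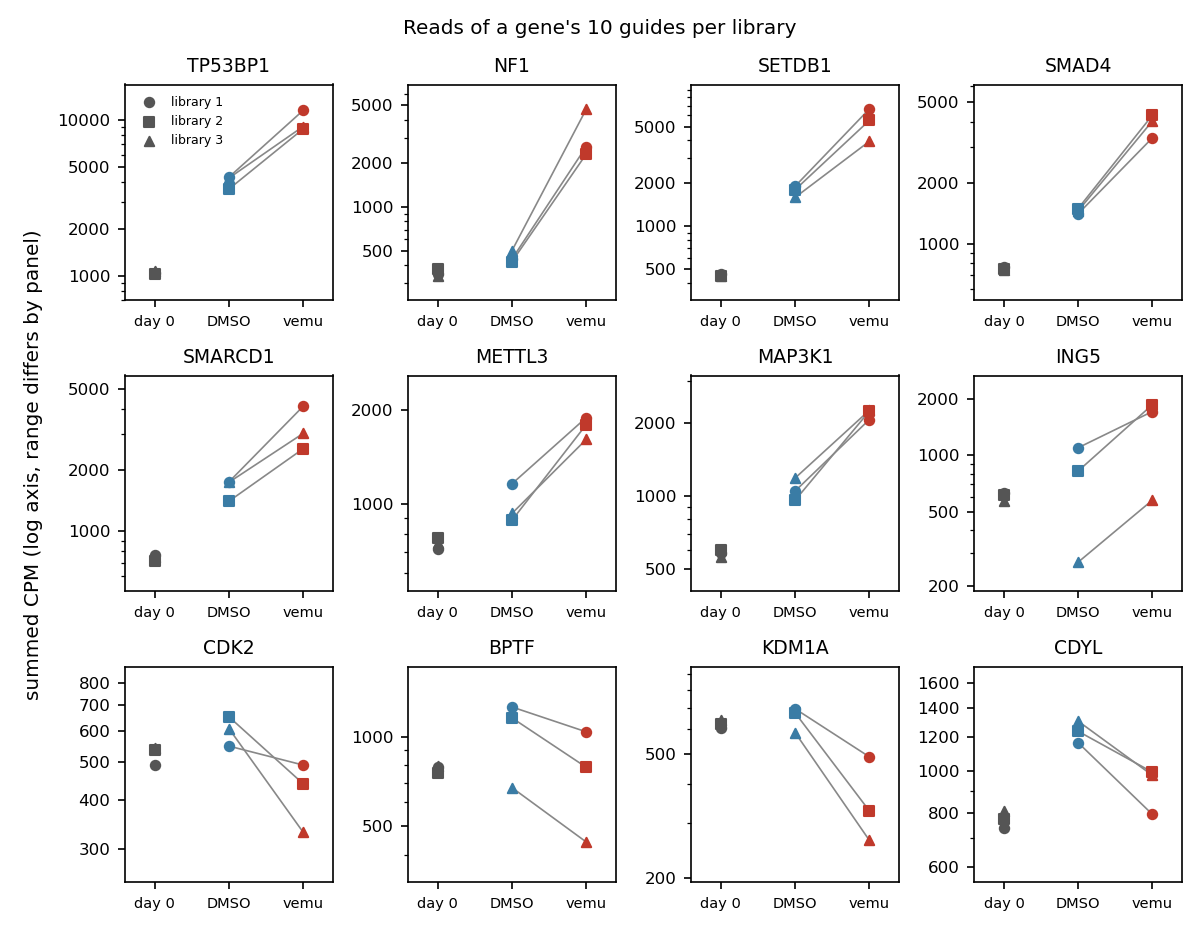
Summed CPM of a gene's 10 guides (y axis, logarithmic, with its own range in each panel) at day 0, in DMSO at day 14 and in vemurafenib at day 14, for the 12 called genes described; symbols mark library 1, 2 or 3 and lines join day-14 libraries of the same number. NF1 stands near its day-0 level in DMSO and between 2311 and 4697 CPM in vemurafenib, while both ING5 libraries of number 3 lie far below the others, at 269 and 577 CPM.

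SMARCD1, a subunit shared by BAF-type SWI/SNF remodellers that links the core to DNA-binding factors, was the only member of its list called by edgeR/RRA. The 10 guides summed to 1751, 1407 and 1744 CPM in DMSO and to 4125, 2549 and 3033 CPM in vemurafenib, with no overlap. The gene score rose by 0.95 ± 0.11 (SE; limma adjusted p = 0.000163), all 10 guides were higher and the median was 0.84 (edgeR/RRA adjusted p = 1.94e-05). Its paralogs, which occupy the same position in other assemblies, had medians of 0.06 (SMARCD2) and -0.20 (SMARCD3), neither of which passed (edgeR/RRA adjusted p = 1 and 0.649); the difference between paralogs was not tested. Over the 21 measured BAF and PBAF genes the median was -0.01 and 10 lay above 0 (47.6%, against 58.5% of all genes).

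ARID2, the DNA-binding subunit that defines PBAF, stood at the opposite end of that list. Its summed CPM were 1420, 1689 and 1651 in DMSO and 1183, 2034 and 1499 in vemurafenib, which overlap. The mean of log2 values over guides was nevertheless lower in all 3 pairs, by 0.40 to 0.50, since 5 guides were between -1.34 and -0.94 while 4 others were above 0. Its median of -0.56 did not pass (edgeR/RRA adjusted p = 0.0639), and its gene score change of -0.45 ± 0.10 did (limma adjusted p = 0.0168), except without DMSO library 2 or 3 or vemurafenib library 1 (0.0624, 0.0642 and 0.0512). The median was -0.34 without DMSO library 2 and also without vemurafenib library 1. SMARCB1, the core subunit, had a median of -0.28 (edgeR/RRA adjusted p = 0.165), and 2 of its guides passed in opposite directions. SMARCB1_9 had a log2 fold change of 2.41 and SMARCB1_5 one of -1.92. SMARCC1, another core subunit, had a median of -0.36 (0.511).

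METTL3, the catalytic subunit of the enzyme that writes N6-methyladenosine (m6A) on RNA, rose on the strength of a few guides. Together its guides summed to 1161, 888 and 934 CPM in DMSO and to 1892, 1796 and 1611 CPM in vemurafenib, with no overlap. A large part of these sums was 1 guide, METTL3_7, at 680, 447 and 429 CPM in DMSO and 1165, 1224 and 969 CPM in vemurafenib. In both arms METTL3_7 stood above its mean of 95.8 CPM at day 0. The gene score rose by 0.79 ± 0.10 (SE, limma adjusted p = 0.000414). Guides METTL3_3, METTL3_2, METTL3_4 and METTL3_7 had log2 fold changes of 3.36, 3.00, 2.17 and 1.15, whereas the other six lay between -0.71 and 0.53 (edgeR/RRA adjusted p = 0.003). The strongest of them were nearly lost in DMSO: METTL3_3 stood at 0.73, 0.78 and 1.73 CPM in DMSO and 12.7, 5.61 and 12.7 CPM in vemurafenib, below its mean of 36.6 CPM at day 0 in both arms. METTL3_2 did not pass on its own (edgeR adjusted p = 0.158), and in libraries 3 it went from 6.31 CPM in DMSO to 4.34 CPM in vemurafenib. The METTL3 score was 1.17 below day 0 in DMSO and 0.38 below it in vemurafenib. With only guides of at least 20 CPM the METTL3 call was lost (edgeR/RRA adjusted p = 0.102). The median of 0.43 over so uneven a set moved to 0.080 without vemurafenib library 3, 0.73 without vemurafenib library 1 and 0.67 without DMSO library 1, in fits that kept the call.

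METTL14, the obligate partner of METTL3, had a median of 0.57 with 9 of 10 guides higher. It did not pass edgeR/RRA (adjusted p = 0.241), and its gene score was up by 0.53 ± 0.11 by limma (adjusted p = 0.0105), also with any single library left out. The partners differed in their level under DMSO, where METTL14 stood 0.34 above day 0. Among the 6 measured genes of the m6A list METTL3 and METTL14 were those with no overlap between arms, and 3 of 6 medians were above 0. CBLL1, a subunit of the writer complex, had -0.14 and METTL16, a separate methyltransferase, 0.34 (edgeR/RRA adjusted p = 1 for both).

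MAP3K1, a kinase upstream of the stress kinase JNK, rose without any single guide passing. Its guides summed to 1048, 960 and 1186 CPM in DMSO and to 2068, 2238 and 2258 CPM in vemurafenib, and the arms did not overlap. Of its guides 8 were between 0.10 and 1.66 and the other two at -0.07 and -0.09. The gene score rose by 0.74 ± 0.13 (SE; limma adjusted p = 0.00451; edgeR/RRA adjusted p = 0.00332). The library held 3 genes of this pathway. MAP2K4, the kinase between MAP3K1 and JNK, had a median of 0.59 with 9 of 10 guides higher, and MAP3K7, the TAK1 kinase, one of 0.76 with 7 of 10, but neither passed (edgeR/RRA adjusted p = 0.165 and 0.826; limma 0.0515 and 0.179).

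ING5, a histone H3K4me3 reader in lysine acetyltransferase complexes, was the least secure of the genes that rose. Its guides summed to 1098, 825 and 269 CPM in DMSO and to 1714, 1863 and 577 CPM in vemurafenib. The arms overlapped, since libraries numbered 3 were low in both, and each pair rose, by 1.00, 1.04 and 0.67 in gene score. All 10 guides were higher, between 0.42 and 1.87 (edgeR/RRA adjusted p = 0.0185), but the gene score change of 0.90 ± 0.26 did not pass limma (adjusted p = 0.0671). Without the replicate block the edgeR/RRA adjusted p was 0.717, and it was 0.782 without DMSO library 3, 0.228 without vemurafenib library 1 and 0.679 without vemurafenib library 2. The call was also lost with alpha 0.1 in the rank aggregation (0.634) and on summed counts (0.147), so that ING5 passed in 9 of 16 alternatives. Among the 9 is the fit with no filter, which kept the same guides as the main fit and only repeats it. BRD1, the scaffold of an acetyltransferase complex that can contain ING5, had the highest median of the 20 acetyltransferase and acetyl-reader genes, 1.10, with 8 of 10 guides higher. BRD1 did not pass edgeR/RRA (adjusted p = 0.227), and its gene score was up by 0.67 ± 0.14 (limma adjusted p = 0.0151), a call lost without DMSO library 1 or 2 or vemurafenib library 3 (0.0686, 0.0865 and 0.0531). The scaffolds BRPF1 and BRPF3 had medians of 0.31 and 0.04 and ING4 one of 0.24, none of which passed. ING3, listed with the TIP60 remodellers here, went the other way, with a median of -0.78 and 8 of 10 guides lower (edgeR/RRA adjusted p = 0.164). BRDT, a bromodomain protein of the germline, had the lowest median of the 20 acetyltransferase and acetyl-reader genes, -0.57 (edgeR/RRA adjusted p = 0.692). BRD2, a bromodomain reader named after its values were seen, passed limma at 0.57 ± 0.10 (adjusted p = 0.005) and not edgeR/RRA (adjusted p = 1).

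**Figure D3:**
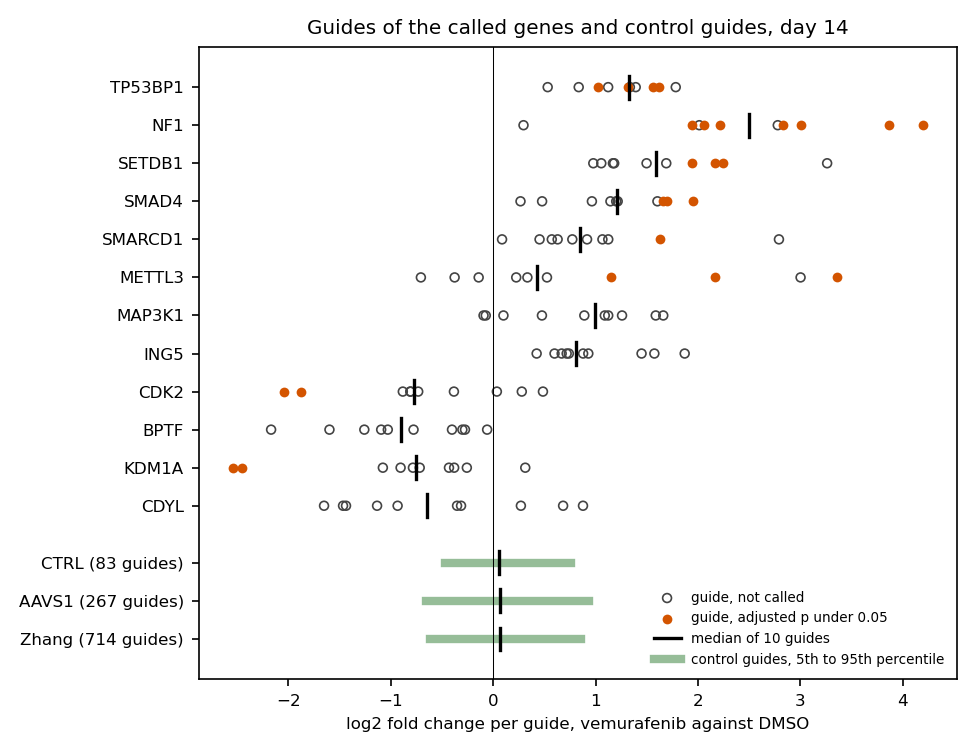
Log2 fold change of each of 10 guides (x axis, vemurafenib against DMSO at day 14) for the 12 called genes described, with filled points for guides that passed edgeR on their own and a bar at the gene's median; green bands span the 5th to 95th percentile of each class of control guides. The 10 SETDB1 guides all lie at or above 0.98, whereas the METTL3 guides spread from -0.71 to 3.36.

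The 4 genes whose loss was depleted in vemurafenib changed by less than a factor of 2 in gene score, and the calls rested on individual libraries. With each day-14 library left out in turn, between 1 and 3 of these 4 genes passed edgeR/RRA, although in each of those fits between 3 and 6 genes fell. By limma CDK2, BPTF and KDM1A passed with any single library left out.

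CDK2, the cyclin-dependent kinase of the G1/S transition, had guides summing to 550, 654 and 610 CPM in DMSO and to 492, 441 and 331 CPM in vemurafenib. All treated libraries lay below all controls. The gene score fell by 0.66 (SE 0.09; limma adjusted p = 0.000812), with a median of -0.77 (edgeR/RRA adjusted p = 0.0179). Guides CDK2_6 and CDK2_2 passed on their own, at -2.04 and -1.88, and 3 of 10 guides were above 0. The edgeR/RRA call was lost without vemurafenib library 1 or 2 (adjusted p = 0.0692 and 0.0524) and in a fit to the 6 libraries alone (0.0668), and the median was -0.47 without DMSO library 3. The other cell-cycle kinases CDK1, CDK4 and CDK6 had medians of 0.17, 0.17 and -0.43, and none passed (edgeR/RRA adjusted p = 1, 0.882 and 1). SKP2, the F-box protein that marks the CDK inhibitor p27 for destruction, had a median of -0.44 (edgeR/RRA adjusted p = 0.646) and a gene score change of -0.65 ± 0.15 (limma adjusted p = 0.0278), lost without DMSO library 1 or 2 or vemurafenib library 1 or 2 (up to 0.151). Among 11 genes of the cell-cycle brakes list 10 medians were above 0, up to 0.42 for RB1 and CDKN1B, the p27 inhibitor itself. None passed edgeR/RRA or limma (edgeR/RRA adjusted p = 0.209 for RB1 and 0.95 for CDKN1B). On counts summed per gene RB1 passed (0.62, edgeR adjusted p = 0.00236) and CDKN1B did not (0.36, adjusted p = 0.182).

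BPTF, the large subunit of the NURF remodeller that reads H3K4 methylation, had guides summing to 1261, 1158 and 673 CPM in DMSO and to 1039, 789 and 441 CPM in vemurafenib. Summed CPM overlapped between the arms, but the gene score did not, and it fell in each pair by 0.98, 0.75 and 1.14. All 10 guides were lower, from -2.17 to -0.06, with a median of -0.90 (edgeR/RRA adjusted p = 0.0235) and a gene score change of -0.96 ± 0.16 (limma adjusted p = 0.00311). The edgeR/RRA call was lost without DMSO library 1 or 2 or vemurafenib library 3 (adjusted p = 0.159, 0.213 and 0.384), with guides of at least 20 CPM (0.062) and on summed counts (0.0986), and the median was -0.52 without vemurafenib library 3 and -0.56 without the replicate block. In the 13-gene NURF and ISWI list 4 medians were above 0. BAZ1A, a subunit of the ACF and CHRAC complexes, was up by 0.76 ± 0.16 in gene score (limma adjusted p = 0.0151; lost without DMSO library 1 or 2, 0.101 and 0.0624), and SMARCA5, the ISWI ATPase of NURF-related complexes, changed by -0.37 ± 0.10 (limma adjusted p = 0.0481; lost without any one of 5 libraries, up to 0.155). Neither passed edgeR/RRA (0.146 and 0.388).

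KDM1A, the LSD1 demethylase that removes H3K4 methyl groups, had guides summing to 696, 676 and 585 CPM in DMSO and to 489, 329 and 265 CPM in vemurafenib. The arms did not overlap. Of its guides 9 were lower and KDM1A_10 was at 0.31, the median was -0.75 (edgeR/RRA adjusted p = 0.0243) and the gene score fell by 0.89 (SE 0.12; limma adjusted p = 0.000812). Guides KDM1A_8 and KDM1A_2 passed on their own, at -2.54 and -2.45. The edgeR/RRA call was lost without DMSO library 3 or vemurafenib library 2 or 3 (adjusted p = 0.0747, 0.353 and 0.16), with DESeq2's test (0.0644) and with alpha 0.1 in the rank aggregation (0.0519). KDM1A was also the only called gene of its 13-gene CoREST list, whose median was 0.05 with 10 genes above 0, and the related demethylase KDM1B had -0.01. HMG20B, a DNA-binding subunit of the same complex, had the highest median, 0.32 (edgeR/RRA adjusted p = 1).

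CDYL, a chromodomain protein that binds repressive histone methylation, had guides summing to 1165, 1238 and 1306 CPM in DMSO and to 796, 996 and 980 CPM in vemurafenib. Summed CPM did not overlap between arms, whereas the gene score did. Its median was -0.64 (edgeR/RRA adjusted p = 0.0334), 3 of 10 guides were above 0, and the gene score change of -0.55 ± 0.15 did not pass limma (adjusted p = 0.0515). The edgeR/RRA call was lost without DMSO library 1 or 2 or vemurafenib library 1 or 3 (0.154, 0.0507, 0.355 and 0.0991). Its paralog CDYL2 had a median of -0.22 that did not pass (0.882).

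Genes of the MLL and COMPASS H3K4 methyltransferase complexes lay mostly below 0. Of 20 measured members 7 had a median above 0 (35%, against 58.5% of all genes) and the median over the list was -0.09. None passed edgeR/RRA, by which 0.359% of all genes fell. Limma passed 4 of the 20 downward, against 2.15% of all genes. KMT2D, the MLL4 enzyme of enhancers, had guides summing to 1357, 1191 and 1099 CPM in DMSO and to 1007, 744 and 960 CPM in vemurafenib, without overlap. Its gene score change was -0.73 ± 0.11 (limma adjusted p = 0.00126), 9 of 10 guides were lower, and its median of -0.45 did not pass (edgeR/RRA adjusted p = 0.122), although without vemurafenib library 3 it was -0.89 and passed (0.0214). KDM6A, the H3K27 demethylase UTX that sits in the KMT2D complex, summed to 482, 521 and 627 CPM in DMSO and to 327, 288 and 363 CPM in vemurafenib, again without overlap. Its gene score change was -0.76 ± 0.15 (limma adjusted p = 0.00762) and its median -0.61 (edgeR/RRA adjusted p = 0.111). MEN1 and PSIP1, which tether the related MLL1 complex to chromatin, changed by -0.60 ± 0.11 and -0.44 ± 0.10 in gene score (limma adjusted p = 0.00665 and 0.0204; edgeR/RRA 1 and 0.388); MEN1 was named after its values were seen. KMT2D, KDM6A and MEN1 passed limma with any single library left out, and PSIP1 did not without DMSO library 1 or 2 or vemurafenib library 2 (0.062, 0.0991 and 0.0582). KMT2C, the close relative of KMT2D, had a median of -0.48 (edgeR/RRA adjusted p = 0.862).

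SAGA, a coactivator with acetyltransferase and deubiquitinase modules, showed a small lean upward. Among 22 measured subunits 19 had a median above 0 (86.4%, against 58.5% of all genes), the median over the list was 0.18, and none passed edgeR/RRA. TADA1, a core subunit, was up by 0.60 ± 0.11 in gene score with all 10 guides higher (limma adjusted p = 0.00711; edgeR/RRA 0.232). In the whole-genome library described below, TADA1 had a median of -0.05. TADA2B, of the acetyltransferase module, had the highest median, 0.85 (edgeR/RRA adjusted p = 0.208). SUPT20H and TAF6L, both core subunits, had 0.42 and 0.24 (0.208 and 0.593), and TAF10 the lowest value, -0.28. On counts summed per gene TADA2B and SUPT20H passed upward (0.67 and 0.59, edgeR adjusted p = 0.0194 and 0.0323). TADA1 and TAF6L did not pass that test (0.56 and 0.33, adjusted p = 0.219 and 0.294).

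NF2, the tumour suppressor merlin that acts upstream of the Hippo kinases, had a large change in summed reads that rested on some of its guides. Its guides summed to 2958, 2493 and 3814 CPM in DMSO and to 6758, 7451 and 9878 CPM in vemurafenib, with no overlap. Of these guides 5 were between 0.94 and 1.69 and the other five between -0.32 and 0.29, so the median of 0.61 did not pass (edgeR/RRA adjusted p = 0.157), and it was 0.41 without vemurafenib library 2 and 0.36 without vemurafenib library 3. The gene score was up by 0.56 ± 0.10 (limma adjusted p = 0.00613), and edgeR on counts summed per gene gave a log2 fold change of 1.21 (adjusted p = 9.6e-06). NF2 guides had already gained 1.03 over day 0 in DMSO. CUL3, the scaffold of a cullin ubiquitin ligase, had a median of 0.64 (edgeR/RRA adjusted p = 0.164) and a gene score up by 0.51 ± 0.14 (limma adjusted p = 0.0481), a call lost without any one of 5 libraries (up to 0.196).

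The library also holds guides against MED12, which the cells already lacked. No library used here came from cells with MED12, so these values cannot test the genotype. The MED12 guides summed to 1021, 1264 and 1109 CPM in DMSO and to 844, 1167 and 881 CPM in vemurafenib, which overlap. The median was -0.24 (edgeR/RRA adjusted p = 1; -0.39 to -0.14 with 1 library left out, lowest without DMSO library 2 and highest without DMSO library 3), the gene score change -0.21 ± 0.11 (limma adjusted p = 0.341), and the score was within 0.17 of day 0 in both arms. The other 2 Mediator genes of the library also did not pass: CDK8, the kinase of the same module, had -0.15 and MED19, of the core, 0.18.

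Other chromatin groups held no gene called by edgeR/RRA or limma. Polycomb repressive complex 2 (11 genes, median 0.02), Polycomb repressive complex 1 (23 genes, 0.07), the CHD and NuRD remodellers (21 genes, 0.16), the TIP60, INO80 and SRCAP remodellers (28 genes, 0.11), DOT1L and elongation factors (17 genes, 0.09), DNA methylation enzymes (14 genes, 0.16), the NCoR corepressor (4 genes, 0.16) and arginine methyltransferases (10 genes, 0.05) passed neither test. EZH2, the Polycomb H3K27 methyltransferase, had a median of 0.22 and DOT1L, the H3K79 methyltransferase, one of -0.11, and BCORL1, a Polycomb corepressor, one of -0.55 (edgeR/RRA adjusted p = 1, 0.692 and 0.321). On counts summed per gene the Polycomb gene PCGF1 passed upward (0.57, edgeR adjusted p = 0.00395). EZH2, DOT1L and BCORL1 did not pass that test (adjusted p = 0.366, 0.407 and 0.380). Core machines whose loss is generally harmful also passed neither test: 37 ribosomal protein genes had a median of 0.15, and 19 spliceosome, proteasome and RNA polymerase genes one of 0.06. In the replication list POLE4, a histone-fold subunit of DNA polymerase epsilon that is also listed with the ATAC complex here, was up by 0.67 ± 0.12 in gene score (limma adjusted p = 0.005; edgeR/RRA 0.122).

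**Figure D4:**
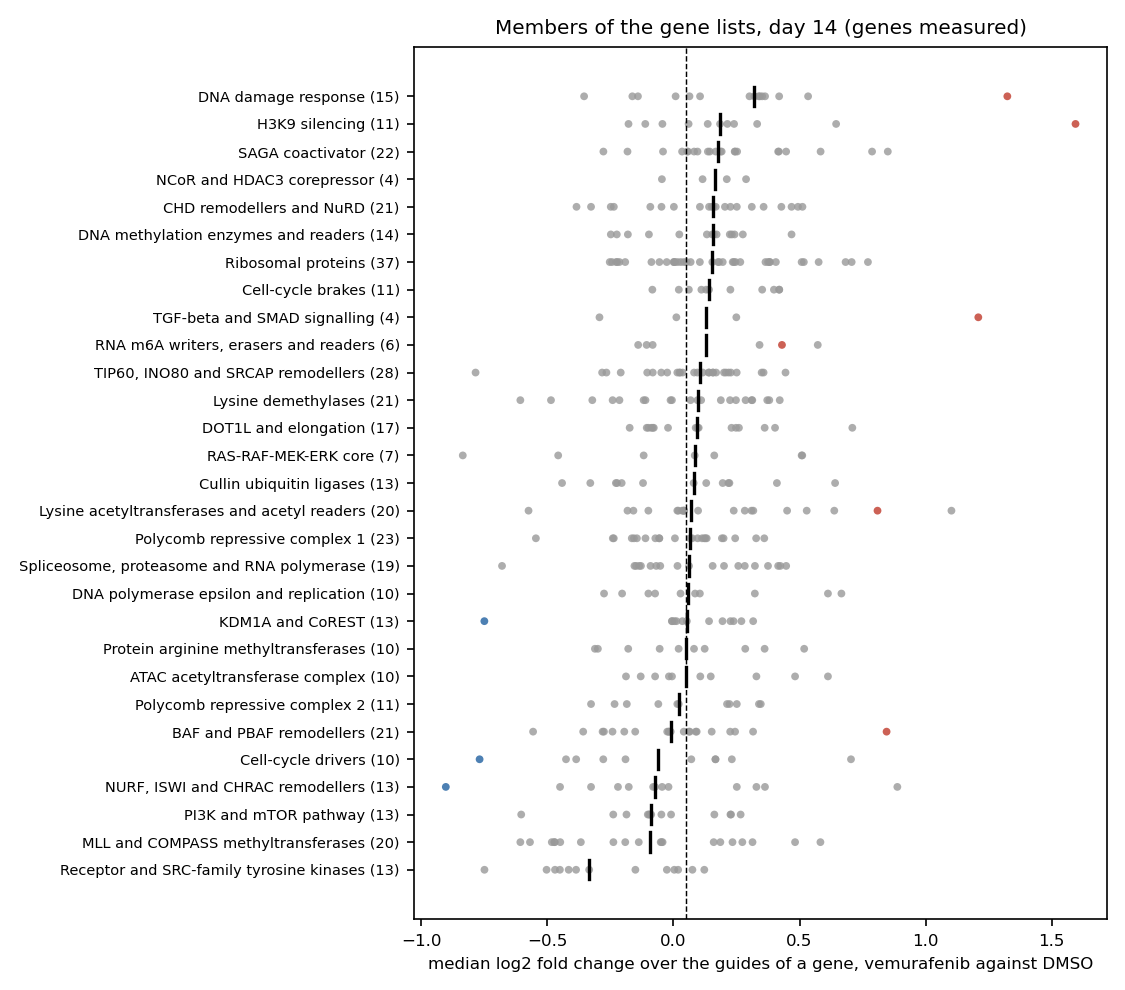
Median log2 fold change of each measured gene (points, x axis) in the lists with at least 4 measured genes, ordered by the list's median (bars); red and blue points rose or fell by edgeR/RRA and the dashed line is the median of all genes, 0.05. Tyrosine kinases stand lowest at -0.33, and most lists lie within 0.2 of the dashed line with single called genes away from it.

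The next genes in rank did not pass. Upward, PRDM15, a zinc-finger regulator, had a median of 0.67 (edgeR/RRA adjusted p = 0.0534). PRDM15 passed in 8 of 16 alternatives, among them scaling on CTRL and AAVS1 guides (0.0496), alpha 0.1 (0.0466) and summed counts (0.0109). It also passed without DMSO library 1 or 2 or vemurafenib library 1 (0.0377, 0.0462 and 0.0152). Downward, after ARID2, ERBB2, KDM6A and KMT2D, came SAP30, a subunit of the SIN3 histone deacetylase complex, at -0.46 and ALKBH4, a dioxygenase, at -0.50 (0.137 for both). Of 16 alternatives ARID2 and KMT2D passed in 5, ERBB2 and KDM6A in 4, ALKBH4 in 3 and SAP30 in 2. ALKBH4 passed limma (-0.55 ± 0.12, adjusted p = 0.0145), except without DMSO library 1 or 3 or vemurafenib library 1 (0.0619, 0.0642 and 0.0507). Its median was -0.26 without DMSO library 3, -0.13 without vemurafenib library 1 and -0.24 without the replicate block. SAP30 summed to 927, 1409 and 1161 CPM in DMSO and to 1032, 2255 and 931 CPM in vemurafenib, and a count test on the sums gave 0.050, opposite in sign to its guide median, which was -0.82 and passed without vemurafenib library 2 (0.00593).

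Single guides passed edgeR rarely: 39 of 12214 rose (0.319%) and 14 fell (0.115%). Of the 39 that rose 26 targeted genes that were called, and the remaining ones came from genes with no second guide called in that direction, such as DPF3_4 (log2 fold change 1.70; 118, 163 and 178 CPM in DMSO, 514, 523 and 423 CPM in vemurafenib) and POLE4_10 (2.16). Among the 14 that fell 4 belonged to CDK2 and KDM1A, and others were KDM7A_8 (-2.44), CDK13_3 (-1.90) and RFWD2_4 (-2.35). CDK13, a kinase of RNA polymerase II elongation, passed limma as a gene (-0.77 ± 0.12) and not edgeR/RRA (adjusted p = 0.141). These guide counts moved with single libraries. Without DMSO library 1, 2 or 3 the guides that rose numbered 12, 16 and 15, and without vemurafenib library 1, 2 or 3 they numbered 64, 79 and 101. The guides that fell numbered 2 without DMSO library 1, 5 without DMSO library 3, 21 without vemurafenib library 2 and 29 without vemurafenib library 3.

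Day 8 of the same screen, in 6 further libraries that share day 0 and the fit but not the day-14 samples, gave the called genes in the same direction with smaller values. The labels do not say whether the day-14 cultures continue those of day 8, so the 2 days may not be independent. At day 8 16 genes rose (1.43%) and 17 fell (1.52%); all 9 that rose by day 14 were among them and 3 of the 4 that fell, while CDYL was not (edgeR/RRA adjusted p = 0.188). The NF1 score rose by 1.09 ± 0.17 (SE) at day 8 and by 2.44 ± 0.17 at day 14, SETDB1 by 0.94 ± 0.11 and 1.80 ± 0.11, and TP53BP1 by 0.50 ± 0.11 and 1.24 ± 0.11. In a test of the difference between days by edgeR/RRA, 10 genes had a higher effect at day 14 (0.897%) and 2 a lower one (0.179%), and among the former were NF1, TP53BP1, SMAD4, SETDB1, SMARCD1, MAP3K1 and METTL3. The counts depended on the libraries: 5 genes were higher without DMSO library 1 or 2 or without vemurafenib library 1 or 2, and 6 without vemurafenib library 3, and 0 genes were lower without DMSO library 2 and 1 without DMSO library 1 or vemurafenib library 1 or 3. By limma on the gene score no gene passed for this difference (lowest adjusted p = 0.072; 23 genes had an unadjusted p under 0.05).

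A whole-genome library screened in MED12 knockout cells held 4 guides per gene and had its own 3 DMSO and 3 vemurafenib libraries at day 14, at the same dose. Whether any guides have the same sequence in both libraries was not tested. Among 19100 genes 0 rose by edgeR/RRA and 1 fell (0.00524%); 504 genes in each direction had an unadjusted p under 0.05, and limma passed 0 upward and 1 downward. All 9 genes that rose in the epigenetic library had a median above 0 there and all 4 that fell had one below 0, where 51.4% of all genes lay above 0. None of them passed edgeR/RRA in that library.

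NF1 had a median log2 fold change of 2.24 in the whole-genome library and a gene score change of 2.00 ± 0.34 (SE), against 2.44 ± 0.17 with the epigenetic guides. SETDB1 had 1.89 ± 0.34, MAP3K1 0.89 ± 0.32, TP53BP1 0.95 ± 0.34 and SMAD4 0.77 ± 0.25, each with 4 of 4 guides higher. Of the genes that fell, BPTF had -0.75 ± 0.23 with 0 of 4 guides higher, CDYL -0.61 ± 0.32 with 2 of 4, KDM1A -0.52 ± 0.33 with 2 of 4 and CDK2 -0.50 ± 0.37 with 1 of 4. Values for METTL3 (0.23 ± 0.23), ING5 (0.06 ± 0.22) and SMARCD1 (0.36 ± 0.38) were within about 1 SE of 0, and the difference between libraries was not tested. TRIM28, at 0.33 with the epigenetic guides, had a median of 2.18, and NF2 one of 1.64. On the depleted side PTPN11 had a median of -3.85 and EGFR one of -1.53, neither called. The 1 gene that fell was GRB2, an adaptor that couples receptors to RAS and for which the epigenetic library gave no value, with a median of -3.65 (edgeR/RRA adjusted p = 0.0453). It was called without DMSO library 2 as well and not without any of the other five (0.0849 to 0.63); the 1 gene that fell without vemurafenib library 2 was a different one.

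**Figure D5:**
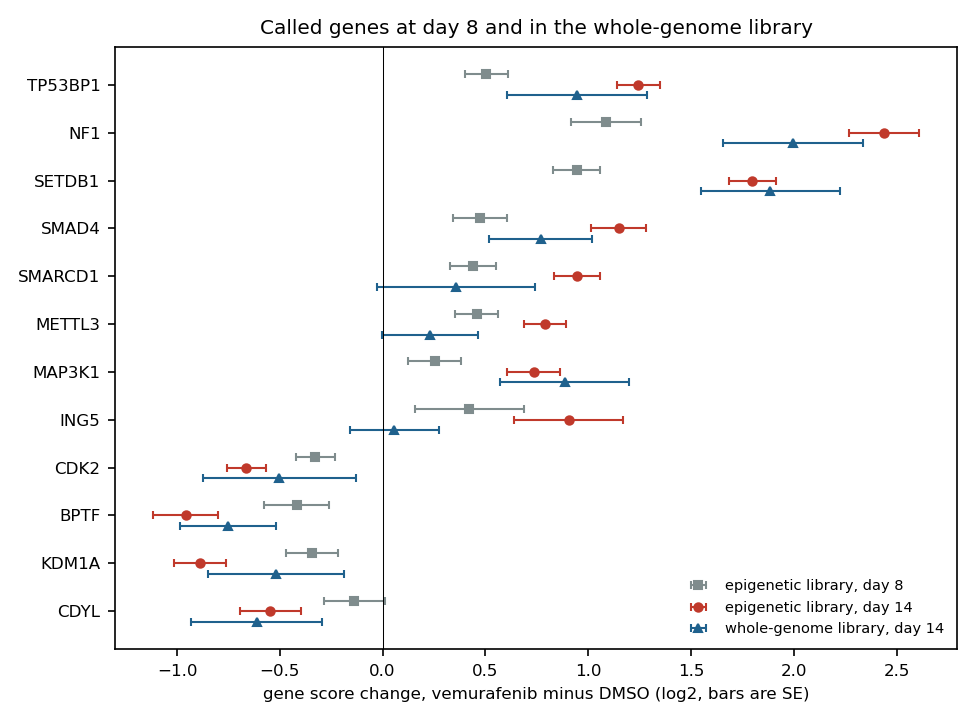
Gene score change, vemurafenib minus DMSO (log2, x axis, bars are SE), for the 12 called genes described at day 8 (grey squares) and day 14 (red circles) of the epigenetic library and at day 14 of the whole-genome library (blue triangles). Every gene has the same sign in all comparisons, the day-14 values exceed those of day 8 in size, and ING5 lies at 0.06 in the whole-genome library.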

How the data were processed

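Reads per guide and library were analysed as raw counts, which the authors deposited without normalization; bcl2fastq, HISAT2 and HTSeq are named in the submitters' processing notes, with no versions, and the guide reference is not stated there. Guide sequences were PCR-amplified from genomic DNA, per the labels' protocols, and no molecular identifiers are named, so reads are not independent molecules. In R 4.3.3, edgeR 4.0.16 was fitted to all 15 libraries of the table (5 groups of 3, replicate number as block, TMM scaling); filterByExpr (minimum count 10, minimum total 15) kept 12214 of 12214 guides. Guide ranks were combined per gene by robust rank aggregation (alpha 0.25, exact null), the gene p being 2 times the smaller of both directions. Gene scores were tested with limma 3.58.1, and DESeq2 1.42.0 served as an alternative. Adjusted p is Benjamini-Hochberg over all genes or guides. The code was tested on simulated data.

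Genes named were those past the threshold (up to 15 per direction), the next by p up to 10 per direction where fewer passed, NF1, NF2, MED12 and BRAF always, and up to 4 genes per list with the lowest p. Genes and lists were chosen with earlier results of these data known. Alternatives were other scalings, tests, filters, alpha and left-out libraries. Symbols are those of the table: 1069 of 1115 are current in RefSeq and 43 are older names. One gene that rose is not reported here and was left out of the lists.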

Additional observations from a re-analysis of the deposited data

Results flagged for a closer look

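The vemurafenib effect differed between day 14 and day 8 in the epigenetic screen for the genes that follow, by the interaction of drug and day (edgeR/RRA adjusted p under 0.05; limma on the gene score passed none of them). The value is the median over 10 guides of the difference in log2 fold change, day 14 minus day 8. It was 1.42 for NF1, 0.78 for SETDB1, 0.77 for TP53BP1, 0.74 for SMAD4, 0.60 for MAP3K1, 0.43 for SMARCD1 and 0.20 for METTL3, all of which rose at day 14. CDYL (-0.45) and KDM1A (-0.44), which fell at day 14, had values farther below 0 than at day 8. The cell-cycle inhibitors RB1 (0.50) and CDKN1A (0.36) differed as well, although neither passed at day 14 itself (edgeR/RRA adjusted p = 0.209 and 0.227).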

How the results depend on the processing

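NF1, TP53BP1, SETDB1, SMAD4, SMARCD1 and MAP3K1 kept their direction and their call under all 16 alternatives. Of these 16, the fit with no filter could not differ, since the filter of the main fit had kept every guide. The same-numbered libraries were paired in the main fit. With no replicate block, 10 genes rose and 6 fell, 5 guides rose and 1 fell, the gene score passed 14 genes up and 10 down, 6 genes were higher and 0 lower at day 14 than at day 8, and 0 genes fell in the whole-genome library. A fit to the 6 day-14 libraries alone gave 7 genes that fell, 9 guides that rose and 0 that fell. DESeq2's test called 277 guides up and 128 down. Gene tests other than rank aggregation called more genes: 28 up and 24 down by limma, and 29 up and 19 down by edgeR on summed counts. At least 20 CPM left 1 gene lower at day 14 than at day 8. With 1 library left out, 9 to 12 genes rose and 3 to 6 fell, 12 to 101 guides rose and 2 to 29 fell, the gene score passed 15 to 33 up and 12 to 34 down, 5 to 7 genes were higher and 0 to 2 lower at day 14, and 0 to 1 fell in the whole-genome library. With 1 library left out BRAF's median ran from -0.12, without vemurafenib library 3, to 1.02, without DMSO library 3, and SAP30's turned to 0.050 on summed counts; the cause was not tested. Depth limits guides near 1 CPM, such as METTL3_3 in DMSO.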
